A study of Mus musculus with 6 samples.

Results

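The 9 genes Adra1b, Adra1d, Adra2a, Adra2b, Adrb1, Hrh1, Hrh2, Htr1b and Htr2a encode receptors for adrenaline and noradrenaline, histamine and serotonin, and were taken by name from the 24421 rows of the deposited table of read counts. They were selected on their levels in the young and aged samples, so their difference with age is given here as a description, without a test. RNA was sequenced from CD31+CD45- liver endothelial cells (ECs) of wild-type C57BL/6J female mice. The young group held 3 samples at 10 weeks of age and the aged group 1 sample each at 127, 131 and 136 weeks, and the labels name no treatment. The 3 aged samples were thus 3 different ages, and the sources used here do not say whether a sample came from 1 mouse or more.

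These receptors pass through the membrane 7 times and act through G proteins. The alpha-1 adrenergic receptors, the histamine receptor H1 and the serotonin receptor 5-HT2A couple to the Gq family, which raises calcium in the cell. Alpha-2 adrenergic receptors and 5-HT1B couple to the Gi family, which lowers cyclic AMP, and the beta-1 adrenergic and H2 receptors to Gs, which raises it. In blood vessels they are known for control of tone and permeability: histamine opens endothelial junctions through H1, and noradrenaline from nerve endings narrows vessels mainly through alpha-1 receptors on smooth muscle. In the liver, Adra1b is the main alpha-1 receptor of hepatocytes, where it drives the release of glucose.

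The libraries held 23001556 to 31651817 counts. Levels are given as CPM (reads scaled to a common library size) with TMM factors, which adjust for differences in RNA composition, and 1 read stood for 0.0315 to 0.0451 CPM. Young replicate 3 and the 127-week sample had few counts on Lars2 and Rn45s, 2 symbols that can collect reads of ribosomal RNA (1.29% and 0.960%, against 4.68% to 5.53% in the other 4 samples), so differences within these library clusters are given too. Endothelial markers were abundant in every library (summed CPM of 9 pan-endothelial genes between 9872 and 14630), and 7 of 8 sinusoidal markers were lower in all 3 aged than in all 3 young samples. The summed CPM of 7 pan-leukocyte markers was 15.7 to 27.0 in young ECs and 57.2, 17.7 and 217 at 127, 131 and 136 weeks. In such bulk samples, fewer cells of a type and less RNA per cell cannot be told apart.

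As a group, the 9 receptor genes were close to the limit of detection. Together they took 32 to 217 of the reads of a library, and 1 of them, Htr1b, had no read in any sample. Only 5, Adra2a, Adra2b, Adrb1, Hrh1 and Htr2a, reached the filter of 0.5 CPM in at least 1 sample and entered the fit with 14612 genes, and Adra2a, Adrb1 and Hrh1 reached it in aged samples only. A filter of this kind keeps a low gene because it is high somewhere, so counts over these 5 say nothing by themselves. For comparing genes with each other the deposited FPKM values were used, which are scaled to transcript length. By mean FPKM over the 6 samples the order was Adra2b (0.409), Adrb1 (0.365), Htr2a (0.241), Adra2a (0.111), Hrh1 (0.0693), Hrh2 (0.0490), Adra1b (0.0428), Adra1d (0.00844) and Htr1b (0). Few neighbours in this order were separated beyond their spread: Adra2b exceeded Adrb1 in 3 of 6 samples, Adrb1 exceeded Htr2a in 3, Htr2a exceeded Adra2a in 4, Adra2a exceeded Hrh1 in 4, Hrh1 exceeded Hrh2 in 3, Hrh2 exceeded Adra1b in 2, and Adra1b exceeded Adra1d in 5. With medians in place of means Htr2a stood above Adrb1 and Adra1b above Hrh2, and Adra1d and Htr1b were both at 0. The means of Adrb1 and Hrh2 rested on the 136-week sample. The summed FPKM of the 9 genes was 0.320 to 1.25 in young and 0.848 to 3.21 in aged ECs. Htr2b, a serotonin receptor gene outside the group, had a mean FPKM of 8.61 and by itself exceeded each of the 9 genes in every sample.

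**Figure D1:**
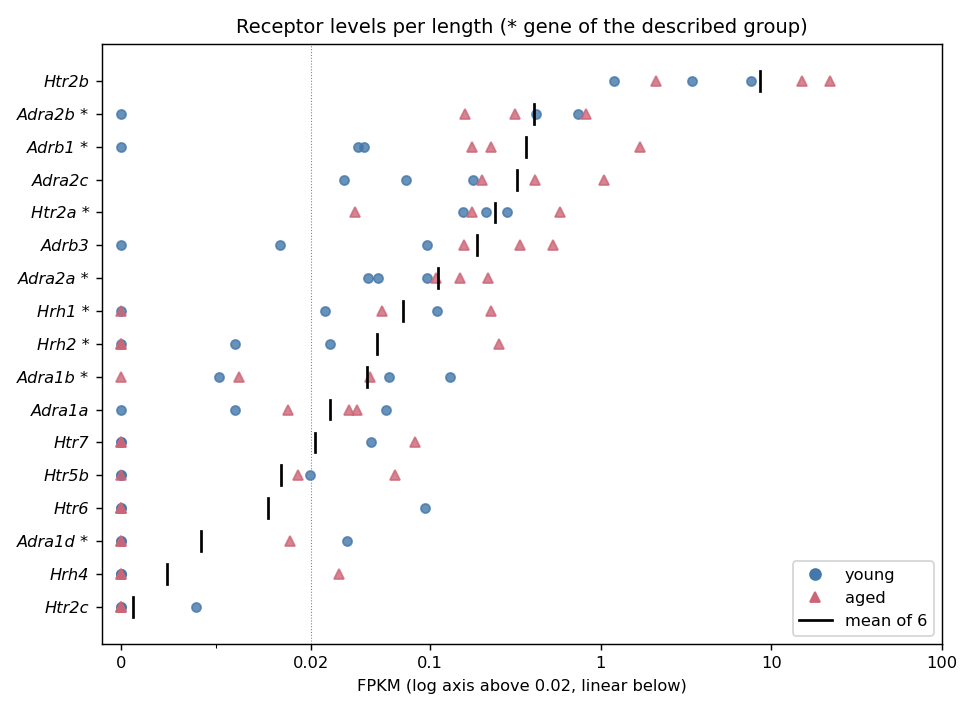
Deposited FPKM (horizontal axis, logarithmic above 0.02 and linear below) of 17 adrenergic, histamine and serotonin receptor genes with an FPKM above 0 in at least 1 sample; circles are young and triangles aged samples, black lines are means of 6, and asterisks mark genes of the group described here. Within each sample Htr2b lies above every asterisked gene, and the highest asterisked value is 1.71, for Adrb1 in the 136-week sample, where Htr2b reached 22.2.

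Because the genes are so low, the DNA before them is shown for the 3 whose levels the description turns on: Adrb1 and Adra2a, whose ages did not overlap, and Adra2b, the one with most reads. The bases are RefSeq's (GRCm38.p6), those before its start site, and each run was found once on its chromosome of mm9, the build of the files, on the plus strand. Capitals mark the GC box GGGCGG, a binding motif of Sp1, or its complement CCGCCC. The Adrb1 run is chr19:56796357-56796606, that of Adra2a chr19:54119499-54119671, cut short at the GENCODE gene start, and that of Adra2b chr2:127188665-127188914.
Adrb1: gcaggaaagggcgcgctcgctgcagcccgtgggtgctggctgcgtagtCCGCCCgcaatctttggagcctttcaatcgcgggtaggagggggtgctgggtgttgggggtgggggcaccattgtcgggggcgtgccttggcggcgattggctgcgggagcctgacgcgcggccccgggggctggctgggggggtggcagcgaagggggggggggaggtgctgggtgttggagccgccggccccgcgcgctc
Adra2a: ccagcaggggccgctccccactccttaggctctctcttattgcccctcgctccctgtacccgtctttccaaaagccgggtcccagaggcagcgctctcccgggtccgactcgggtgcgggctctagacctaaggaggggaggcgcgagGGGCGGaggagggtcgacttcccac
Adra2b: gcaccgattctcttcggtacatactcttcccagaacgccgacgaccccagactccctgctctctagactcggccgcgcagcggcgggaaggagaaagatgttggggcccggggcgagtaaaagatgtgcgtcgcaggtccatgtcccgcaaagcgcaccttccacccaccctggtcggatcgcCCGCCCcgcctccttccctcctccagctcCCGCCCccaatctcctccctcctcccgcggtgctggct

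In the 250 bases before the start, Adrb1 had 24 CpG dinucleotides, Adra2a 22 and Adra2b 23, against a median of 6 over 32536 promoters of the table. In the same window the promoters of Adra1b had 22 and 3, those of Hrh1 from 1 to 32 and those of Hrh2 10 and 9. Htr2a had 4 and Htr1b 6, and 6 of 8 genes of the group had a promoter above the median. A GC box stood in at least 1 promoter of 7 of the 8 genes matched by symbol (Adra1d was not), Htr1b being the one without, and in 33.0% of all promoters. The count is per gene and the share per promoter, so they cannot be compared directly. Hrh1 and Adra1b also had promoters without a GC box. Other letters searched on both strands were TATAAA, found once before Adra2a (past the printed bases) and in 12.3% of all promoters, TGACGTCA, the response element for cyclic AMP, found in none of the 13 promoters of the group and in 1.56% of all, and CCGGAAGT, an ETS motif, found in none and in 2.90%. No motif of these 4 contains another, and a match or its absence is a description of these letters alone.

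Adra1b and Adra1d, the alpha-1 receptors, were at a few reads per library and did not enter the fit. Adra1b (chromosome 11, 43588108 to 43714712 of mm9, minus strand, with transcripts of 2 to 5 exons) had 11, 4 and 1 reads in the 3 young samples, in the order of their numbers, and 4, 1 and 0 at 127, 131 and 136 weeks. Young replicate 1 was the highest, at 0.409 CPM, and the ages overlapped. The group totals were 16 reads in young and 5 in aged ECs. Without young replicate 1 both were 5, but the young total then came from fewer libraries. Young replicates 2 and 3 were at 0.1805 and 0.0315 CPM, and the aged samples at 0.1375, 0.0389 and 0 CPM. Within the clusters with many and few Lars2 and Rn45s counts the differences were -0.60 and 0.26 on the log2(CPM + 0.5) scale. Summed CPM of 10 hepatocyte markers was 128 to 182 in young and 77.6 to 98.1 in aged samples, and 4 of these 10 were lower without overlap. In the cluster with few Lars2 and Rn45s counts this sum was 172 in the young and 98.1 in the aged sample, where Adra1b had 1 and 4 reads. Their part in the Adra1b counts was not tested. Adra1d (chromosome 2, 131371586 to 131388021, minus strand) had 2, 4 and 0 reads in young and 0, 0 and 1 in aged samples. Over 147 of its 1901 exon bases the annotation places another gene, Gm14285, on the other strand, and the sources used here do not say whether counting used the strand. The 4 reads of young replicate 2 stand beside an FPKM listed at 0, so the count table and the FPKM table did not assign these reads alike.

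Adra2a and Adra2b encode alpha-2 receptors in a single exon each. Adra2a (chromosome 19, 54119672 to 54123472, plus strand) had 5, 8 and 5 reads in young and 16, 21 and 10 in aged samples. That is 0.186, 0.361 and 0.158 CPM in young and 0.550, 0.817 and 0.406 CPM at 127, 131 and 136 weeks. Every aged sample lay above every young one, but the 136-week sample by only 0.406 against 0.361 CPM in young replicate 2. The mean was 0.235 ± 0.110 CPM in young and 0.591 ± 0.208 CPM in aged ECs (mean and SD of 3 samples), and the fit gave a log2 difference of 1.33 with a standard error of 0.71. Its highest level was that of the 131-week sample, and without the 136-week sample the aged mean was 0.683 CPM. Within the library clusters with many and few Lars2 and Rn45s counts the differences were 0.51 and 0.68 on the log2(CPM + 0.5) scale.

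Adra2b (chromosome 2, 127188944 to 127192957, plus strand) had 78, 38 and 0 reads in young and 91, 16 and 30 in aged samples. Its levels of 2.90, 1.72 and 0 CPM in young and 3.13, 0.622 and 1.22 CPM in aged samples overlapped. The mean was 1.54 ± 1.46 CPM in young and 1.66 ± 1.31 CPM in aged ECs (again with the SD of 3 samples), with a fitted log2 difference of 0.11 and a standard error of 1.28. Young replicate 3 was the deepest library, and the exact 95% Poisson interval of its 0 reads ran to 0.116 CPM, while that of young replicate 1 ran from 2.29 to 3.62 CPM. Intervals and limits of this kind cover counting error only, since PCR copies of 1 molecule cannot be told from separate molecules. Inside the clusters of libraries the direction differed. Where Lars2 and Rn45s counts were many, both young samples lay above both aged ones (a difference of -0.98 on the log2(CPM + 0.5) scale), and where they were few the aged sample had 91 reads and the young sample none (2.86). The pooled difference near 0 thus joined a lower and a higher aged level. By Pearson's correlation of log2(CPM + 1) over the 6 samples, the genes most like Adra2b among those tested were Enoph1 (r = 0.991), Acox3 (r = 0.990) and Pou2f1 (r = 0.980), the highest coefficients among 14612 tested genes, over 6 points that share the library clusters.

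**Figure D2:**
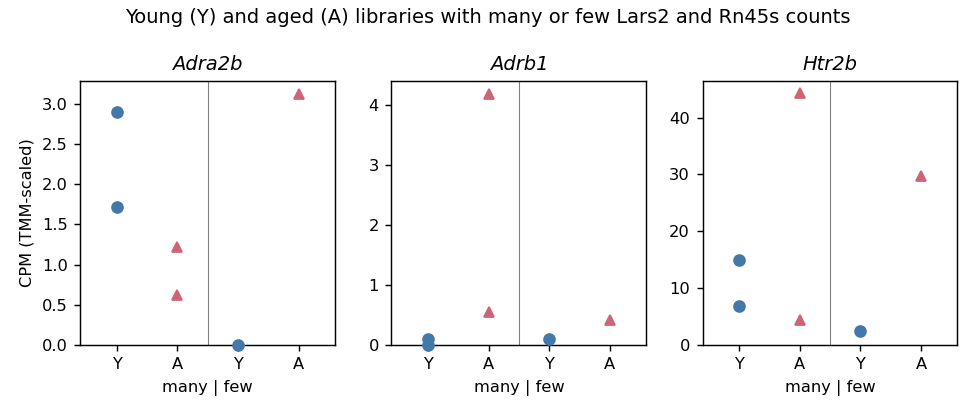
TMM-scaled CPM (vertical axes, from 0) of Adra2b, Adrb1 and Htr2b in young (circles, Y) and aged (triangles, A) libraries, with many Lars2 and Rn45s counts to the left of the grey line and few to the right. Adra2b is lower in aged libraries on the left and higher on the right, while Adrb1 is higher in aged libraries on both sides.

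Adrb1, the beta-1 receptor best known from heart muscle, showed the widest separation of the group. It is a single-exon gene (chromosome 19, 56796862 to 56799352, plus strand) and had 0, 2 and 3 reads in young and 12, 14 and 103 in aged samples. In CPM these were 0, 0.0902 and 0.0946 in young and 0.413, 0.544 and 4.18 at 127, 131 and 136 weeks. The 136-week sample stood far above the others, and the other aged samples above the young ones by a few reads. The exact 95% Poisson intervals of the 127-week sample (0.213 to 0.721 CPM) and the 131-week sample (0.298 to 0.913 CPM) overlapped that of young replicate 2 (0.0109 to 0.326 CPM), whereas that of the 136-week sample (3.41 to 5.07 CPM) overlapped none. The mean was 0.0616 ± 0.0534 CPM in young and 1.71 ± 2.14 CPM in aged ECs (SD of 3 samples), a ratio of 27.8 and a fitted log2 fold change of 4.69 (standard error 1.32). Without the 136-week sample the ratio was 7.77 and the fitted log2 fold change 2.87. On the log2(FPKM + 1) scale, which shrinks low genes, the values for Adrb1 and Adra2a were 0.619 and 0.123. On the log2(CPM + 0.5) scale the difference was 2.03 in the cluster with many and 0.62 in that with few such counts. The sample with most Adrb1 reads was also the one with the highest pan-leukocyte sum, and all 7 pan-leukocyte markers were fitted higher in aged ECs (6 of 7 at an unadjusted p below 0.05 in edgeR's test, 1 without overlap). In the 131-week sample that sum was 17.7, inside the young range, while Adrb1 had 14 reads there. The part of such cells in the Adrb1 level was not tested.

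The histamine receptor genes had few reads, mostly in single samples. Hrh1, the H1 receptor, which opens endothelial junctions (chromosome 6, 114347930 to 114433290, plus strand, 2 to 3 exons), had 11, 2 and 0 reads in young and 0, 5 and 21 in aged samples. The highest value, 0.853 CPM, was that of the 136-week sample, followed by young replicate 1 with 0.409 CPM, and both ages held a sample without reads. Its mean was 0.167 ± 0.215 CPM in young and 0.349 ± 0.447 CPM in aged ECs (SD, n = 3 each), with a log2 fold change of 1.04 (standard error 1.61). Both samples without reads, young replicate 3 and the 127-week sample, were those with few Lars2 and Rn45s counts. The difference was thus 0 between them and 0.40 among the other 4 samples on the log2(CPM + 0.5) scale. Without the 136-week sample Hrh1 did not enter the fit and the ratio of the aged to the young mean was 0.584, and without young replicate 1 the fitted value was 2.96. Hrh2, the H2 receptor (chromosome 13, 54287498 to 54317801, plus strand, 3 exons), had 1, 0 and 4 reads in young and 0, 0 and 9 in aged samples and did not enter the fit. Its total of 14 reads over 6 libraries was too small to describe a difference. FPKM did not follow these reads, which limits the place of Hrh2 in the FPKM order. Young replicate 3, with 4 reads, was listed at 0.01205 and young replicate 1, with 1 read, at 0.02612. Of 7 markers of mast cells and basophils, which store histamine, Tpsab1 had no read in any sample and the summed CPM of the list was at most 3.90.

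Of the serotonin receptors, Htr1b (chromosome 9, 81524950 to 81526222, minus strand, 1 exon), the target of the triptans in brain arteries, had 0 reads in all 6 samples. A count of 0 allows 0.0946 to 0.135 CPM per library at 3 counts. It shares 852 of its 1273 exon bases with D430036J16Rik on the other strand. Htr2a, which encodes the 5-HT2A receptor of platelets and smooth muscle (chromosome 14, 75040647 to 75106666, plus strand, 3 exons), was with Adra2a the only gene of the group with reads in all 6 samples. It had 12, 18 and 19 reads in young and 3, 15 and 43 in aged samples. The young values of 0.447, 0.812 and 0.599 CPM lay between the 127-week sample at 0.103 CPM and the 136-week sample at 1.75 CPM, with the 131-week sample at 0.583 CPM. The aged spread thus enclosed the young one. Mean levels were 0.619 ± 0.184 CPM in young and 0.811 ± 0.845 CPM in aged ECs (SD of 3 samples). The fitted log2 difference was 0.38 with a standard error of 0.93, and without the 136-week sample the fitted value was -0.85. Within the clusters with many and few Lars2 and Rn45s counts the differences had opposite signs, 0.485 and -0.866 on the log2(CPM + 0.5) scale. Summed CPM of 6 smooth muscle and pericyte markers was 55.0 to 72.5 in young samples and 32.4, 87.9 and 116 at 127, 131 and 136 weeks, the same order among the aged samples as Htr2a. In young replicates 1, 2 and 3 the sum was 72.5, 63.9 and 55.0 CPM, an order that Htr2a did not share. Summed platelet and megakaryocyte markers stayed between 18.6 and 28.3 CPM in all samples. The part of either cell type in the Htr2a reads was not tested.

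**Figure D3:**
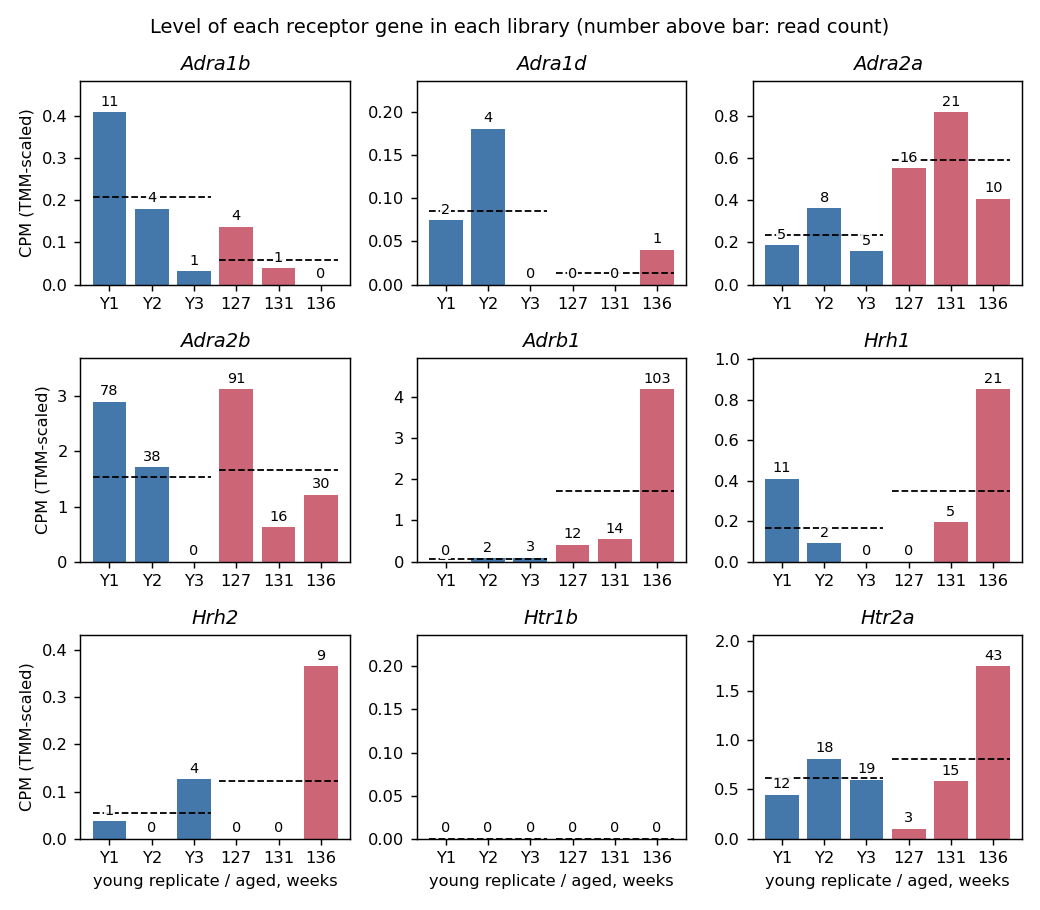
TMM-scaled CPM (vertical axes, each on its own scale from 0) of the 9 receptor genes in young replicates 1 to 3 (blue) and at 127, 131 and 136 weeks (red), with the read count above each bar and the group mean as a dashed line. Red bars all exceed blue bars in Adra2a and Adrb1, the 136-week bar is the highest of 6 in Adrb1, Hrh1, Hrh2 and Htr2a, and Htr1b is empty.

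Across the 9 genes, the ages did not overlap in 2, both higher in aged ECs, against 9.62% of all 14612 tested genes that were higher and 8.33% that were lower without overlap. As the genes were selected on this contrast, nothing is read from that count. Of the 8 genes with any read, 4 had their highest level in the 136-week sample, which held the highest level of 25.7% of all tested genes. No 75-base stretch of the transcripts of these genes occurred in another protein-coding transcript of the annotation, so no read-length stretch was common to 2 of the subtypes.

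The receptors of the same families outside the group were tested with edgeR's quasi-likelihood test, and 0 of 14612 genes passed an adjusted p of 0.05 (630 with DESeq2, 15 with limma-voom). An unadjusted p below 0.05 was reached by 1216 genes that were higher (8.32%) and 631 that were lower (4.32%) in aged ECs. Adrb3, the beta-3 receptor of fat cells, had 0, 1 and 8 reads in young and 26, 15 and 35 in aged samples (log2 fold change 3.16, standard error 1.10, adjusted p = 0.332). Adra2c, the third alpha-2 subtype, had 15, 5 and 3 reads in young and 18, 33 and 80 in aged samples (log2 fold change 2.54, standard error 0.89, adjusted p = 0.332). Without the 136-week sample neither Adrb3 (log2 fold change 2.77) nor Adra2c (1.69) kept an unadjusted p below 0.05.

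Htr2b, the 5-HT2B receptor, was the main serotonin receptor, with 6.81, 14.9 and 2.37 CPM in young and 29.6, 4.36 and 44.3 CPM in aged samples. The 131-week sample lay among the young ones, and the log2 fold change was 1.71 (standard error 0.88, adjusted p = 0.483 in edgeR's test), with differences of 0.47 and 3.40 within the library clusters on the log2(CPM + 0.5) scale. The annotation places Psmd1 on the other strand over 252 of its 2131 exon bases, and Psmd1 itself was at 175 to 213 CPM. Summed CPM of 6 stellate cell markers was 104 to 373 in young samples and 432, 175 and 626 at 127, 131 and 136 weeks (Reln, its most abundant gene, 69.9 to 495 CPM). Of the 6 markers 4 were fitted lower and 2 higher in aged ECs (median -0.59 on the log2 scale), and Lrat was lower in all aged samples (1.67 to 4.18 CPM against 4.51 to 23.6 CPM). Their part in the Htr2b level was not tested. Adra1a, Htr5b, Htr6 and Htr7 reached 3 reads in at least 1 sample and at most 6, and were not tested.

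The list of amine receptor and signalling genes outside the group, these receptors included, held 113 genes, of which 83 were tested. An unadjusted p below 0.05 was reached by 17 (20.5%) with a higher level in aged ECs and by 0 with a lower one. Over all tested genes these shares were 8.32% and 4.32%. Some of the 17, such as Adrb3, Slc6a2 and Chrm2, reached the filter of 0.5 CPM in aged samples only. Counts over this list and its parts thus say nothing by themselves. With a filter of CPM at least 1 in at least 3 samples, 14 were higher and 0 lower (1030 and 541 of all genes). The 3 aged samples alone could meet that filter too. The lists were chosen with earlier results of these data known. The noradrenaline transporter gene Slc6a2, 1 of the 17, had 582 of its 586 aged reads in the 136-week sample. Without that sample an unadjusted p below 0.05 was reached by 9 of 79 tested genes (11.4%) that were higher, against 5.10% of all genes, all 9 among the 17. Of the 7 pan-leukocyte markers 6 reached the same p, and the sum of these markers (57.2, 17.7 and 217 CPM at 127, 131 and 136 weeks) had the same order among the aged samples as Adcy7 (29.1, 5.79 and 41.4 CPM). Among young replicates 1, 2 and 3 the orders were opposite, with 27.0, 15.7 and 20.1 CPM for the sum and 1.90, 2.35 and 1.99 CPM for Adcy7. These Adcy7 levels stood on 51, 52 and 63 reads, and whether they differed beyond counting error was not tested. The pan-leukocyte sum was in the young range in the 131-week sample. There Adcy7 was at 5.79 and Chrm3 at 4.20 CPM, against at most 2.35 and 1.53 CPM in young ECs. The part of leukocyte RNA in these levels was not tested. Of 4 tested dopamine, muscarinic and trace amine receptors 2 reached it. The muscarinic acetylcholine receptors Chrm3 (1.21 ± 0.292 CPM in young, 4.997 ± 0.803 CPM in aged ECs, SD, n = 3 each) and Chrm2 had log2 fold changes of 2.04 and 2.2 (edgeR, adjusted p = 0.190 and 0.256), and Chrm1 one of -0.49 (adjusted p = 0.872). For amine synthesis, transport and breakdown, 4 of 16 tested genes reached that unadjusted p, among them Slc18a1, a vesicular amine transporter (log2 fold change 2.42, adjusted p = 0.256 in edgeR), and Gch1, which makes a cofactor of amine synthesis (0.54, adjusted p = 0.352). Hdc, the enzyme that makes histamine, was at 94.5 to 265 CPM in all samples with a log2 fold change of -0.45 (edgeR, adjusted p = 0.653), and Slc18a2 had one of -0.38 (adjusted p = 0.495). None of 11 G protein alpha subunits reached it, led by Gnai2 at 716 to 1132 CPM. Their values were -0.057 for Gnai2, 0.90 for Gnaz, 0.23 for Gnai3, -0.34 for Gnai1 and -0.096 for Gna11 on the log2 scale. Of 32 tested calcium and cyclic AMP effectors 5 reached it, led by the adenylyl cyclase Adcy7 (2.08 ± 0.237 CPM in young, 25.4 ± 18.1 CPM in aged ECs, SD, n = 3 each) and Pde4b, which breaks down cyclic AMP, with log2 fold changes of 3.61 and 1.65 (edgeR, adjusted p = 0.194 and 0.250). Prkar1a, Prkacb and Plcb3 had values of -0.14, -0.34 and -0.29. Of 16 genes that end receptor signalling 3 reached it, led by Rgs16 (log2 fold change 2.96) and Adrbk2, the receptor kinase GRK3 (2.28), with adjusted p of 0.194 and 0.235 in edgeR's test. Adrbk2 was at 0.558, 1.72 and 0.599 CPM in young and 4.47, 4.74 and 4.63 CPM in aged samples, so that unlike Adrb1 it was even among the aged samples. The arrestins Arrb2 and Arrb1 had log2 fold changes of -1.07 and -0.32, and Rgs3 one of 0.17.

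**Figure D4:**
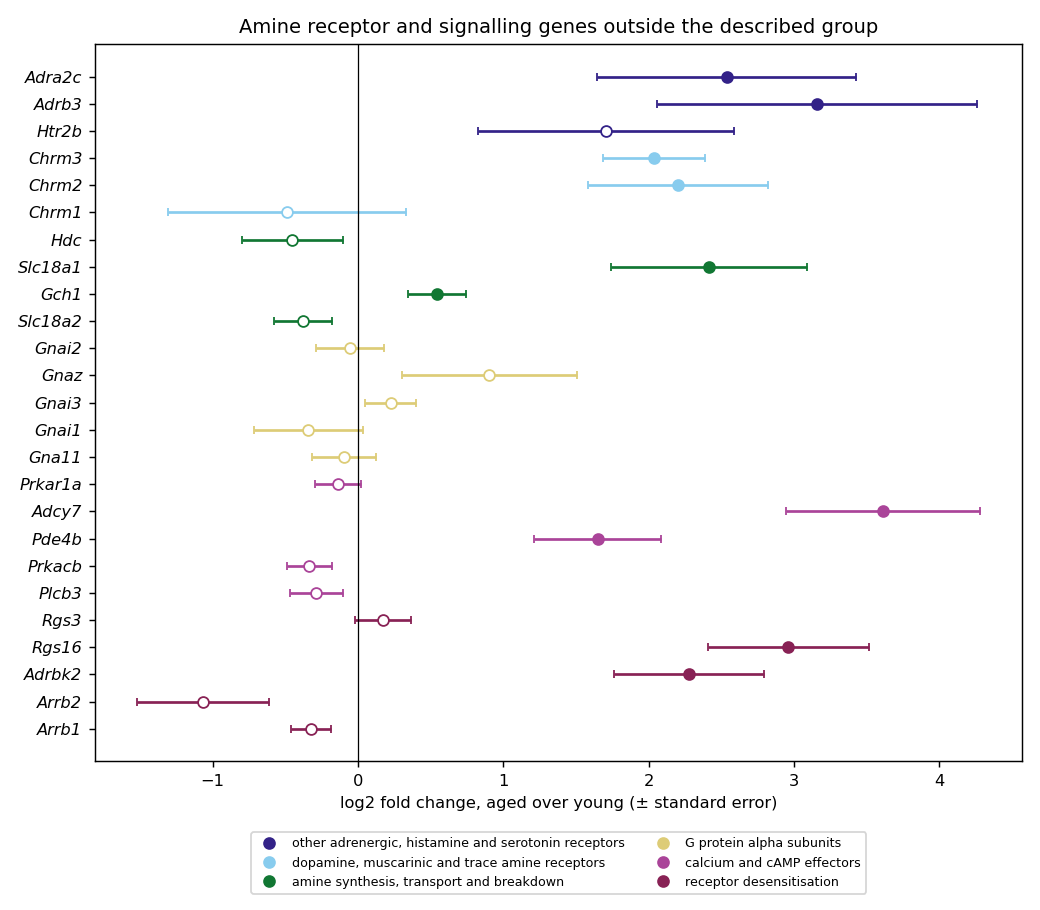
Log2 fold change of aged over young ECs (horizontal axis) with its standard error from edgeR (bars, 3 samples per age) for 25 named genes outside the group, coloured by list; filled points have an unadjusted p below 0.05. All filled points lie on the aged side, from 0.54 for Gch1 to 3.61 for Adcy7, and none passed an adjusted p of 0.05.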

How the data were processed

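RNA of 3 young and 3 aged samples of sorted liver ECs was analysed. Per the labels and the methods, the authors used CASAVA 1.8.2 for base calling and TopHat 2.1.0 for alignment against mm9, and deposited raw read counts per gene symbol. The counting program and its use of strand are not given in the sources used here. A second deposited table held FPKM, made by the authors with Cuffnorm 2.2.1 and scaled between samples. The genes and lists were chosen with earlier results of these data known.

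A gene was kept if its CPM reached 0.5 in any sample. Counts were TMM-normalized and compared with the quasi-likelihood test of edgeR 4.0.16 (R 4.3.3, tested on simulated data), with Benjamini-Hochberg adjustment over 14612 genes. Standard errors were derived from the fitted log2 value and the F statistic. Differences within library clusters used log2(CPM + 0.5). Alternatives used DESeq2 1.42.0 and limma 3.58.1. Replicates of 1 age differed by more than sampling noise (smallest chi-square per degree of freedom 20.2). The methods call the samples of a group independent, with no number of mice. Named genes were the 9 receptors, all others of the 3 families with at least 3 reads in a sample and, in each other list, the most abundant gene and the 2 with the smallest p in each direction. The 3 genes most like a receptor of the group with a mean CPM of at least 1, and marker genes beside a result, were named too. Positions are those of GENCODE for mm9. 1 gene that the rule would name is not reported here.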

Additional observations from a re-analysis of the deposited data

How the results depend on the processing

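No paired analysis was made, because the young and aged samples were separate samples of different ages and no label links them. The aged samples carry ages and no replicate numbers. The alternative values included gene counts and fold changes without a test. Of all these values, 508 kept direction and call or, where there was no test, stayed within a set tolerance. Another 13 turned direction, 35 moved and 9 passed the threshold only there. The tolerance was wide for gene counts: 915 and 1549 higher genes, against 1216, lay within it. Leaving out 1 sample at a time, the log2 difference ran from -0.729 to 0.977 for Adra2b (also -0.478 without young replicate 3) and from -0.85 (without the 136-week sample) to 0.913 for Htr2a, from 0.445 to 2.96 for Hrh1 (not fitted without the 136-week sample), from -1.151 to 0.023 for Chrm1, from -0.195 to 0.118 for Gnai2 (0.046 without young replicate 1) and from -0.326 to 0.034 for Gna11. With limma-voom and sample weights Adra2b was at -0.052, which was also the median over the 5 tested receptor genes (1.04 in the fit reported), Hrh1 at -0.587 and Htr2a at -0.582. Htr2a was also at -0.09 with limma on log2(FPKM + 0.1) and at -0.036 with a term for the library cluster. The cause was not tested.

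An adjusted p below 0.05 was reached by 630 genes with DESeq2's Wald test, 15 with limma-voom, 4 without a filter, 2 with the cluster term and 0 to 1 with a sample left out. For genes of the amine list outside the group these counts were 9 with DESeq2 (Chrm3, Chrm2, Slc18a1, Adcy7, Pde4b, Rgs16 and Adrbk2 among them) and 0 to 1 with a sample left out, the 1 being Adcy7 without the 131-week sample. At an unadjusted p below 0.05, 729 (without the 136-week sample) to 1549 genes were higher and 346 (without young replicate 2) to 887 lower with a sample left out, and 961 were lower with the cluster term. In the amine list 9 (without the 136-week sample) to 22 were higher with a sample left out. Lower genes there numbered 2 with DESeq2 size factors, 2 with DESeq2's test, 3 with limma-voom, 1 without a filter, 1 and 3 with limma on log2(FPKM + 0.1) and log2(FPKM + 1), 1 without Lars2 and Rn45s, 3 with the cluster term and 0 to 2 with a sample left out. CPM without TMM factors was chosen after seeing the data. Depth limits the description: for 4 of the 9 genes no library reached 0.5 CPM.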

Other observations

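Slc6a2, the noradrenaline transporter, was named after its values were seen. It had 0 reads in all 3 young samples, 3 and 1 in the 127- and 131-week samples and 582 in the 136-week sample (23.6 CPM, exact 95% Poisson interval 21.8 to 25.6 CPM). Its level thus rested on the sample that also held most Adrb1 reads. Apart from its place among the 17 genes counted above, its difference with age is given as counts only.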
